A study of Zea mays with 24 samples.

Results

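Transcript levels of 4 maize genes of the cytokinin pathway were followed around the preligule band, the strip of cells from which the ligule grows out between leaf blade and sheath. The genes are CKX4b (GRMZM2G024476), RR9 (GRMZM2G060485), RR6 (GRMZM2G129954) and abph1 (GRMZM2G035688). They were chosen by identifier from 109715 identifiers, and all 4 passed the filter on low counts in every comparison. The 24 libraries of polyadenylated RNA form 8 groups of 3, all in cultivar B73. From wild-type P7 primordia (P7 is the leaf stage), rectangles 100 µm high were cut out by laser on the preligule band, and similar pieces lay 50 µm above it (pre-blade) and below it (pre-sheath). These regions are called ligule, blade and sheath. They were captured through all cell layers (replicates 3, 4 and 5) or from the adaxial L1 alone (replicates 1, 2 and 3). The adaxial L1 is the epidermis on the leaf side facing the shoot axis. The other 2 groups are P6 primordia (replicates 1, 2 and 3, all layers), cut 400 to 900 µm from the base, of wild-type plants and their siblings with genotype lg1-R. The labels call the latter lg1 mutant and do not give the nature of the allele. Each library pooled 5 to 6 plants, and p-values measure the spread between such pools. Whether equal replicate numbers mark shared plants is not in the labels, which also give no dates for the captures. Capture kind therefore cannot be told apart from any difference in collection between the all-layer and L1 series.

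Cytokinins are plant hormones that promote cell division and keep tissues in a growing state. They bind histidine-kinase receptors in membranes. A phosphate then passes over histidine phosphotransfer proteins to response regulators in the nucleus, some of which activate target genes while others dampen the signal. Cytokinin oxidases (CKX) break the hormone down, and in many plants cytokinin raises the transcription of both its oxidases and its dampening regulators. In maize, abph1 (ABERRANT PHYLLOTAXY1) is a cytokinin-inducible response regulator of the dampening kind, and its loss changes the arrangement of leaves on the stem.

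Library totals ran from 3818649 counts (L1 ligule, replicate 2) to 52731783 counts (all-layer blade, replicate 3). Levels are given as CPM, the read count scaled to library size with TMM normalisation. FPKM, the authors' value per kilobase of transcript, is used where different genes are compared. Marker genes were checked against the labels. Of 5 epidermal OCL genes, 4 had an identifier, and their summed level was 421 to 698 CPM over the 9 all-layer P7 libraries and 990.0 to 3080 CPM over the 9 L1 libraries. Within all layers the sum was 421 to 491 CPM in ligule, 585 to 698 CPM in blade and 529 to 640 CPM in sheath. Within the L1 series it was 990.0 to 1265 CPM in ligule, 1967 to 3080 CPM in blade and 1593 to 2501 CPM in sheath. The genes ocl1 and ocl3 were lower in ligule than in the mean of blade and sheath in both captures (log2 -1.05 and -1.06 in all layers, -1.30 and -1.65 in the L1, adjusted p at most 0.0073). In all layers ocl4 and ocl5 averaged 158 and 130 CPM in ligule, between sheath (151 and 119) and blade (178 and 139). In the L1 their ligule means (510 and 308 CPM) were below those of blade (991 and 541) and sheath (614 and 441). Of 3 heat-shock markers, hsp101 was lower in ligule (-1.78, adjusted p = 0.00079 in all layers; -2.53, 0.041 in the L1), and 1 of 2 hsp70 genes was higher in ligule of the L1 (1.77, 0.0063). Their part in the ligule contrasts below was not tested. The preligule-band gene lg1, which encodes an SBP-box transcription factor, averaged 8.20 CPM in ligule of all layers and 13.04 CPM in ligule of the L1, against at most 0.449 CPM in blade or sheath. The band marker ns1 averaged 2.54 and 21.0 CPM in these ligule groups and at most 0.255 CPM in blade or sheath. The band marker lg2 overlapped between regions in all layers (means 27.1 CPM in ligule, 23.8 in blade, 20.4 in sheath). In the L1 its ligule (97.6 CPM) and blade (62.3 CPM) libraries overlapped too. The meristem gene kn1 reached 16.8 CPM in blade replicate 1 of the L1, 3.22 CPM in replicate 2 and 0 in replicate 3, and was at most 1.75 CPM in any other library. Of 4 genes listed beforehand for inner tissue, only rld1 and rld2 had an identifier. Their sum was 326 to 452 CPM in all layers and 440 to 899 CPM in the L1. These genes did not mark inner tissue here, so the L1 libraries were not checked for inner tissue. Earlier results on these libraries set 4 apart from their groups, namely wild-type replicate 1 of P6, blade replicate 2 and ligule replicate 1 of the L1, and the all-layer sheath replicate 4. They were kept, and values without them are given where a call depends on them.

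**Figure D1:**
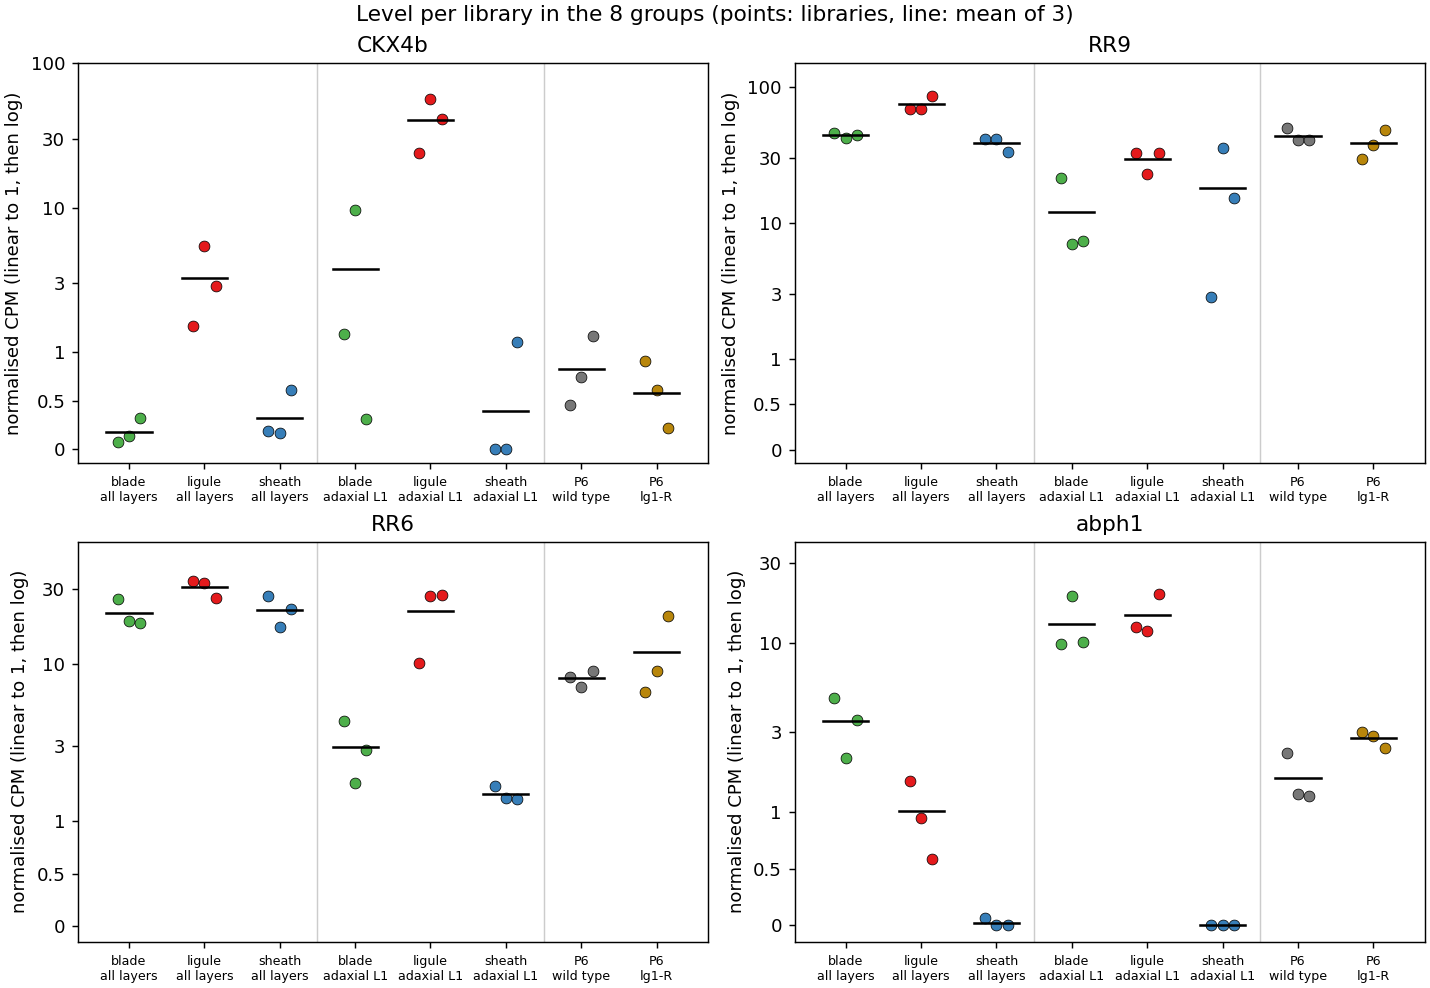
Normalised CPM of the 4 genes in each library (points) and the mean of the 3 libraries of a group (lines), on an axis that is linear up to 1 CPM and logarithmic above. CKX4b stood highest in the L1 of the ligule (24.01 to 56.6 CPM), RR9 in the ligule of all layers (68.6 to 86.0 CPM), RR6 was lowest in the L1 of the sheath (1.38 to 1.67 CPM), and abph1 was at or near 0 in sheath.

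CKX4b, a cytokinin oxidase, stood higher in ligule than in sheath in both captures. In all layers it was higher in ligule than in blade and in sheath, and its highest level of all groups was in the L1 of the ligule. In ligule of all layers it measured 1.53, 5.46 and 2.87 CPM in replicates 3, 4 and 5. Blade held 0.0764, 0.132 and 0.319 CPM in the same order. Sheath held 0.185, 0.168 and 0.611 CPM. The lowest ligule library lay above the highest blade and sheath libraries. In bulk pieces, fewer cells of a type and less RNA per cell cannot be told apart. The log2 difference was 4.30 ± 0.74 (SE) to blade (adjusted p = 0.0039, edgeR quasi-likelihood test with Benjamini-Hochberg adjustment, 3 libraries per group) and 3.39 ± 0.73 to sheath (adjusted p = 0.023). Both comparisons share the ligule libraries. The call against sheath was lost without ligule replicate 4 (2.84, adjusted p = 0.11), ligule replicate 5 (3.47, 0.071), sheath replicate 3 (3.11, 0.089) or sheath replicate 4 (3.07, 0.059). Against the mean of blade and sheath the log2 difference was 3.84 ± 0.56 (adjusted p = 0.0012). Over the ligule libraries, lg1 had the same order as CKX4b, with 1.79, 16.4 and 6.42 CPM in replicates 3, 4 and 5. How much of the band a piece held was not tested.

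In the L1 of the ligule, CKX4b measured 24.01, 56.6 and 40.8 CPM in replicates 1, 2 and 3, with a mean of 40.5 ± 16.3 CPM (SD, n = 3). The L1 of the sheath held 0, 0 and 1.19 CPM, the last from 12 counts. The L1 of the blade was uneven, with 1.35, 9.66 and 0.306 CPM. Ligule lay above both neighbours in every library. The log2 difference to sheath was 6.69 ± 1.35 (adjusted p = 0.0096, edgeR). To blade it was 3.53 ± 1.11 and missed the threshold (adjusted p = 0.084). Without blade replicate 2, the library with 9.66 CPM, it was 5.59 (adjusted p = 0.012). Here lg1 did not follow the order of CKX4b, since it was highest in ligule replicate 1 with 19.0 CPM, against 9.83 and 10.3 CPM in replicates 2 and 3.

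RR9, a response regulator, had the highest mean FPKM of the 4 genes in each P7 region of all layers (22.7 to 46.2 FPKM). Its levels there were highest in ligule. It measured 68.9, 68.6 and 86.0 CPM in ligule replicates 3, 4 and 5. Blade held 46.2, 42.1 and 44.2 CPM. Sheath held 41.8, 41.2 and 33.2 CPM. All 3 ligule libraries lay above the other 6, and the replicates of a region were close to each other. The log2 difference was 0.76 ± 0.20 to blade (adjusted p = 0.048) and 0.92 ± 0.20 to sheath (adjusted p = 0.025). To the mean of both it was 0.84 ± 0.17 (adjusted p = 0.0099). The first call was at the edge of the threshold and was lost when any of 8 of the 9 libraries was left out, all except sheath replicate 4 (0.64 to 0.83, adjusted p up to 0.18). The call against sheath was lost without ligule replicate 4 (1.00, adjusted p = 0.051), ligule replicate 5 (0.80, 0.11), sheath replicate 3 (0.98, 0.064) or sheath replicate 5 (0.83, 0.11). The call against the mean was lost without ligule replicate 5 (0.72, 0.068). With the replicate number as a block, RR9 was not called against blade (0.76, adjusted p = 0.11) or sheath (0.92, 0.079). That block included the sheath libraries. Over many genes, sheath replicates 3 and 4 deviated from their group mean in the opposite direction to same-numbered blade and ligule libraries (r = -0.32 to -0.56). The blocked values are limited by this.

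In the L1, RR9 measured 32.9, 22.8 and 32.5 CPM in ligule. Blade held 21.6, 6.97 and 7.42 CPM. Sheath was the most uneven, with 2.84, 35.8 and 15.4 CPM. Ligule and blade did not overlap, whereas sheath covered the ligule values on both sides. Neither difference passed the test, at 1.37 ± 0.68 to blade (adjusted p = 0.32) and 0.73 ± 0.67 to sheath (adjusted p = 0.64). The spread of the sheath libraries limits what these libraries can show for RR9 in the epidermis.

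RR6, also a response regulator, was not called between any 2 of the 3 regions when all layers were taken. In the L1 it was called higher in ligule than in blade and in sheath. In all layers, ligule measured 33.7, 32.9 and 26.3 CPM, blade 26.1, 18.8 and 18.2 CPM, and sheath 27.1, 17.1 and 22.3 CPM. The ligule values lay just above those of blade and overlapped those of sheath. The log2 difference was 0.56 ± 0.25 to blade (adjusted p = 0.26) and 0.46 ± 0.25 to sheath (adjusted p = 0.50). In the L1, ligule measured 10.2, 27.2 and 27.6 CPM, while blade measured 4.37, 1.74 and 2.83 CPM and sheath 1.67, 1.41 and 1.38 CPM. The 3 regions did not overlap, and the lowest ligule library was replicate 1, which stood apart from its group over all genes. RR6 was higher in ligule than in blade by 2.91 ± 0.57 (log2, adjusted p = 0.0071) and than in sheath by 3.89 ± 0.61 (adjusted p = 0.0018). Without ligule replicate 2 the difference to blade was 2.71 with an adjusted p of 0.053. The difference between blade and sheath in the L1 was 0.97 ± 0.57 (adjusted p = 0.54).

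The change of this contrast between the captures was tested directly. The difference of ligule from the mean of blade and sheath was 0.51 ± 0.21 (log2, adjusted p = 0.23) for RR6 in all layers and 3.40 ± 0.46 (adjusted p = 0.00044) in the L1. In 1 model of all 18 P7 libraries, the L1 contrast exceeded the all-layer contrast by 2.84 ± 0.48 (adjusted p = 0.0015). Of the 4 genes, RR6 alone passed this test in edgeR, against 2.27% of 22334 genes tested. The same term was 1.24 ± 1.28 for CKX4b (adjusted p = 0.82), 0.16 ± 0.62 for RR9 (0.99) and 4.03 ± 1.39 for abph1 (0.18). The abph1 term rests on fitted values of sheath groups with 0 or 1 count. With limma on log2(FPKM + 1), abph1 (2.35, adjusted p = 0.0045) and CKX4b (2.47, 0.032) passed as well.

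abph1 had another pattern, with transcripts in blade and ligule and almost none in sheath. In all layers, blade measured 4.76, 2.11 and 3.51 CPM and ligule 1.53, 0.952 and 0.588 CPM. Sheath held 0.0617, 0 and 0 CPM, from 1 count in its 3 libraries. The 3 regions did not overlap, and the order was blade, ligule, sheath. The difference of blade from sheath passed the test (adjusted p = 0.0010), and so did that of ligule from sheath (adjusted p = 0.0059). Over pooled counts, blade exceeded sheath by a ratio of 175 (374 counts against 1, 95% counting interval 31.3 to 6938). For ligule the ratio was 44.4 (119 counts against 1, interval 7.82 to 1770). These intervals cover counting error only. The log2 difference of ligule from blade was -1.76 ± 0.53 and missed the threshold (adjusted p = 0.081), although every ligule library lay below every blade library. DESeq2 called it (-1.77, adjusted p = 0.025), as did edgeR without sheath replicate 4 (-1.76, 0.040).

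In the L1, abph1 measured 12.5, 11.9 and 19.6 CPM in ligule and 9.98, 19.0 and 10.2 CPM in blade. No read was counted in the 3 sheath libraries, which allows a level of up to 0.0906 CPM over the group at 3 counts. Against that floor, ligule was at least 183-fold higher (591 counts, adjusted p = 0.00017) and blade at least 126-fold higher (549 counts, adjusted p = 0.00041). Both folds rest on pooled counts and do not cover the spread between libraries. Ligule and blade overlapped, with a log2 difference of 0.23 ± 0.52 (adjusted p = 0.88). The contrast of ligule with the mean of blade and sheath was called for abph1 in the L1 (adjusted p = 0.00033) and not in all layers (0.16). That mean holds a group near 0, so its size depends on the fit and is not given.

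**Figure D2:**
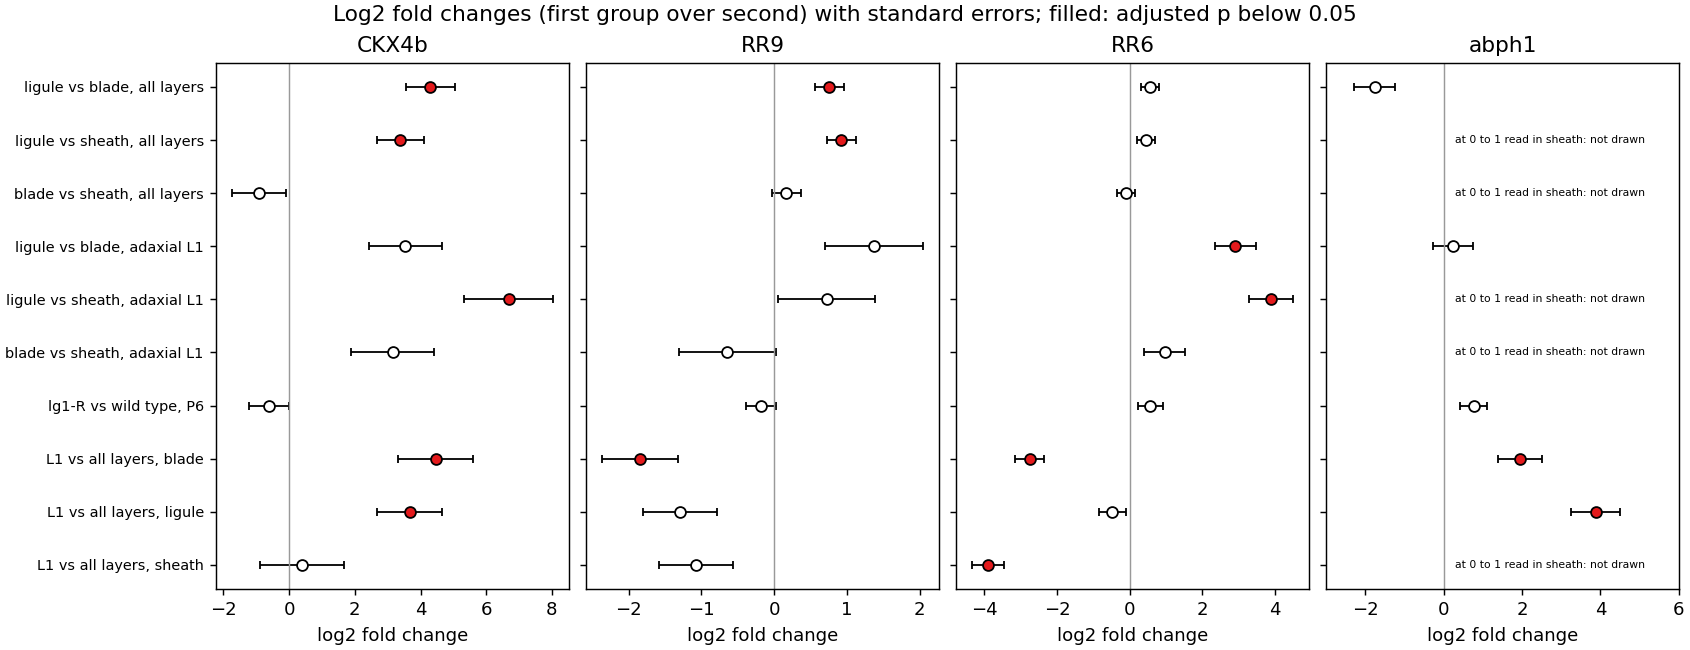
Log2 fold changes of the 4 genes (first group over second) with standard errors, in the comparisons of single regions, of P6 genotypes and of captures. Comparisons of abph1 that involve sheath are not drawn, since its sheath groups held 0 or 1 count. Filled points have an adjusted p below 0.05 in edgeR, and the 3 libraries of each group enter each value. CKX4b points lie right of 0 for ligule against either neighbour (3.39 to 6.69), whereas RR6 is called for these regions in the L1 (2.91 and 3.89) and RR9 in all layers (0.76 and 0.92).

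The counts of called genes among the 4 can be read against the whole table. In all layers, 2 of 4 were called for ligule against the mean of blade and sheath, where 4.57% of 22205 tested genes were called. Against blade alone 2 of 4 were called (4.75% of all), against sheath 3 of 4 (2.79%), and for blade against sheath 1 of 4 (1.58%). With the replicate number as a block, 1 of 4 was called against blade, and 769 of all 22205 genes. In the L1, 3 of 4 were called against the mean (7.73% of 18761), 1 of 4 against blade (6.48%), 3 of 4 against sheath (6.17%), and 1 of 4 for blade against sheath (1.96%). All called differences of ligule were higher. The genes were picked with results of these libraries known, so these shares describe the choice as well as the tissue.

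Captured from the same region, the L1 differed from all layers in opposite directions for the 4 genes. In blade all 4 were called, where 9.38% of 22334 genes were called. CKX4b (4.47 ± 1.14, adjusted p = 0.016) and abph1 (1.94 ± 0.57, 0.036) were higher in the L1, and RR9 (-1.84 ± 0.52, 0.028) and RR6 (-2.75 ± 0.40, 0.00018) were lower. The CKX4b libraries of the 2 captures overlapped, since the lowest L1 blade library held 0.306 CPM and the highest all-layer one 0.319 CPM. Without blade replicate 2 of the L1, CKX4b (2.39, 0.20), RR9 (-1.61, 0.12) and abph1 (1.54, 0.16) lost the call, and RR6 kept it. With limma on log2(FPKM + 1) or log2(FPKM + 0.1) the CKX4b difference was 1.02 (adjusted p = 0.18) or 2.33 (0.12) and was not called. Leaving out blade replicate 3 or 4 of all layers also ended the calls of these same 3 genes. The RR9 and abph1 calls were further lost without blade replicate 5 of all layers or blade replicate 3 of the L1.

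In ligule 2 of 4 were called (16.5% of all genes). CKX4b was higher in the L1 by 3.67 ± 1.00 (log2, adjusted p = 0.014) and abph1 by 3.88 ± 0.62 (0.00024). The CKX4b call was lost without ligule replicate 3 (3.32, 0.069) or 5 (3.58, 0.063) of all layers. RR9 had a log2 difference of -1.29 ± 0.51 (adjusted p = 0.091), which passed without sheath replicate 1 (0.018) or 2 (0.042) of the L1, and RR6 of -0.48 ± 0.37 (0.43). In sheath only RR6 was called by edgeR, at -3.89 ± 0.44 (adjusted p = 8.5e-06), against 13.2% of all genes. RR9 stood at -1.07 ± 0.51 there (adjusted p = 0.18), and at -2.05 (0.016) without sheath replicate 2 of the L1. CKX4b and abph1 had few or no counts in sheath in either capture. The epidermal marker sums given above moved with the capture in all 3 regions. Their part in these differences was not tested.

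In P6 tissue, lg1 itself was not lower in the libraries labelled lg1-R. It measured 0.650, 2.18 and 1.33 CPM in wild type and 2.38, 2.09 and 2.99 CPM in the libraries labelled lg1-R (log2 difference 0.89 ± 0.43, adjusted p = 0.78). The level of the transcript thus does not check the labels, and directions below are those of the labels. None of the 4 genes passed edgeR or DESeq2, and abph1 alone had an unadjusted p below 0.05 in edgeR. Over all genes tested, 1 of 21249 genes was called (0.00471%), while 1401 had an unadjusted p below 0.05 and DESeq2 called 148. abph1 measured 2.99, 2.83 and 2.41 CPM in the libraries labelled lg1-R and 2.23, 1.28 and 1.26 CPM in wild type. These did not overlap, and the log2 difference was 0.76 ± 0.34 (adjusted p = 0.74). RR6 measured 6.65, 9.10 and 20.2 CPM against 8.28, 7.18 and 9.04 CPM in wild type. Its difference of 0.57 ± 0.34 (adjusted p = 0.85) came from replicate 3, and was -0.0386 without it. RR9 measured 29.6, 37.7 and 48.3 CPM against 49.7, 40.7 and 41.1 CPM (-0.18 ± 0.20, adjusted p = 0.92). CKX4b measured 0.916, 0.606 and 0.217 CPM against 0.452, 0.745 and 1.29 CPM (-0.62 ± 0.61, 0.91).

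Ranked over the 8 groups by mean CPM, the 4 genes had different orders. For CKX4b, the L1 of the ligule stood clear of all other groups. L1 blade and all-layer ligule followed with overlapping libraries, and the next 5 groups overlapped with their neighbours down to all-layer blade (0.176 ± 0.127 CPM). For RR9, all-layer ligule (68.6 to 86.0 CPM) stood clear and the other neighbours overlapped. For RR6, the first 6 groups overlapped with their neighbours, from all-layer ligule to P6 wild type, and L1 blade and then L1 sheath lay below without overlap. For abph1, the L1 of ligule and blade overlapped at the top and both sheath groups lay at the bottom. P6 tissue lay between, with wild type next to all-layer ligule.

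The pathway was described with 34 identifiers of genes for cytokinin synthesis, storage, breakdown, reception, phosphotransfer and response, the 4 genes included. Per length, the make-up of the oxidases differed between the captures. CKX4b made up 60.7% ± 9.65 (SD, n = 3) of the summed FPKM of 11 oxidase identifiers in the L1 of the ligule, where it had rank 1 at 23.99 FPKM. In ligule of all layers it made up 8.74% ± 4.50 and had rank 4 at 2.16 FPKM, behind CKX4 (10.6 FPKM), CKX6 (4.80 FPKM) and CKX10 (4.34 FPKM). In blade of all layers it made up 0.701% ± 0.260. CKX4 had the highest mean FPKM in the 3 all-layer P7 groups, and CKX10 in the L1 of blade and sheath. CKX4b averaged 1.85 ± 2.48 FPKM in the L1 of the blade and 0.215 ± 0.372 FPKM in the L1 of the sheath. The sum of all 11 was 38.5 ± 11.2 FPKM in the L1 of the ligule, 4.78 ± 2.85 FPKM in the L1 of the blade and 1.33 ± 1.68 FPKM in the L1 of the sheath. In all layers the sums were 24.4 ± 1.096 FPKM in ligule, 14.0 ± 5.40 FPKM in blade and 12.6 ± 7.97 FPKM in sheath. These shares and sums are descriptions without a test. CKX4b and CKX4 are named as close relatives, and reads they share would blur their values.

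**Figure D3:**
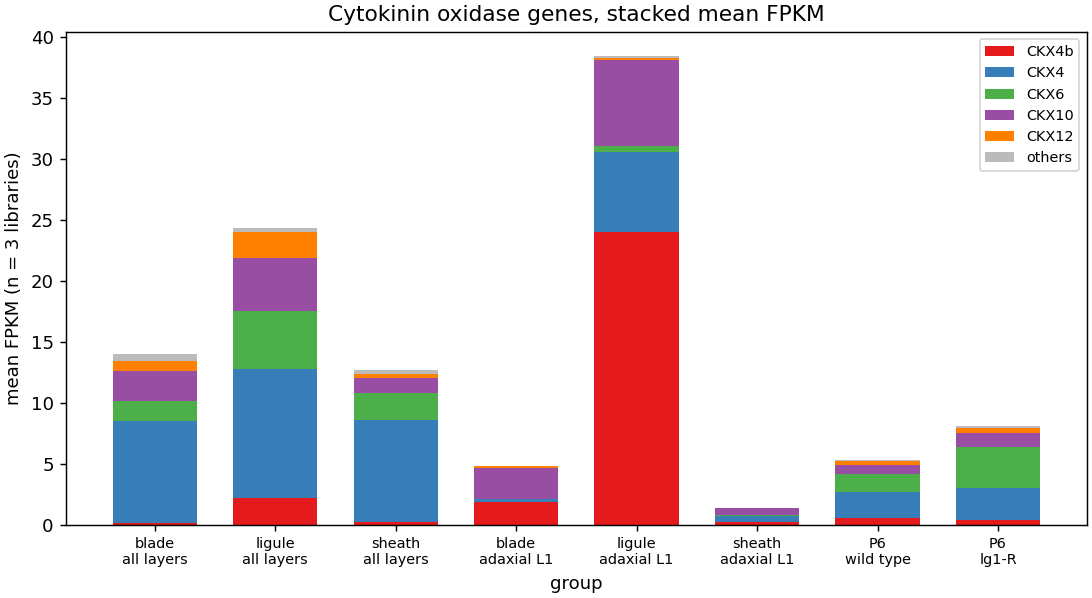
Stacked mean FPKM (n = 3 libraries per bar) of the 11 cytokinin oxidase identifiers in the 8 groups, 6 of them joined as others. CKX4b (red) holds most of the bar in the L1 of the ligule (23.99 of 38.5 FPKM) and a small part in ligule of all layers (2.16 of 24.4 FPKM).

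Among 9 response regulator identifiers, RR9 had rank 2 by mean FPKM in each P7 region of all layers and rank 1 in both P6 groups. In the L1 it had rank 4 in blade (5.61 FPKM) and rank 5 in ligule (15.9 FPKM), and in sheath it kept rank 2 (9.29 FPKM, 19.0% ± 15.2 of the sum). RR6 had rank 4 in each P7 region of all layers (15.5 to 25.2 FPKM). In the L1 it had rank 6 in ligule (15.6 FPKM) and rank 8 in blade (1.85 FPKM) and sheath (1.02 FPKM). abph1 had rank 3 in the L1 of ligule (21.9 FPKM) and blade (16.7 FPKM), and last in the L1 of sheath. It made up 15.9% ± 2.51 of the regulators' summed FPKM in the L1 of the ligule and 1.02% ± 0.636 in ligule of all layers.

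**Figure D4:**
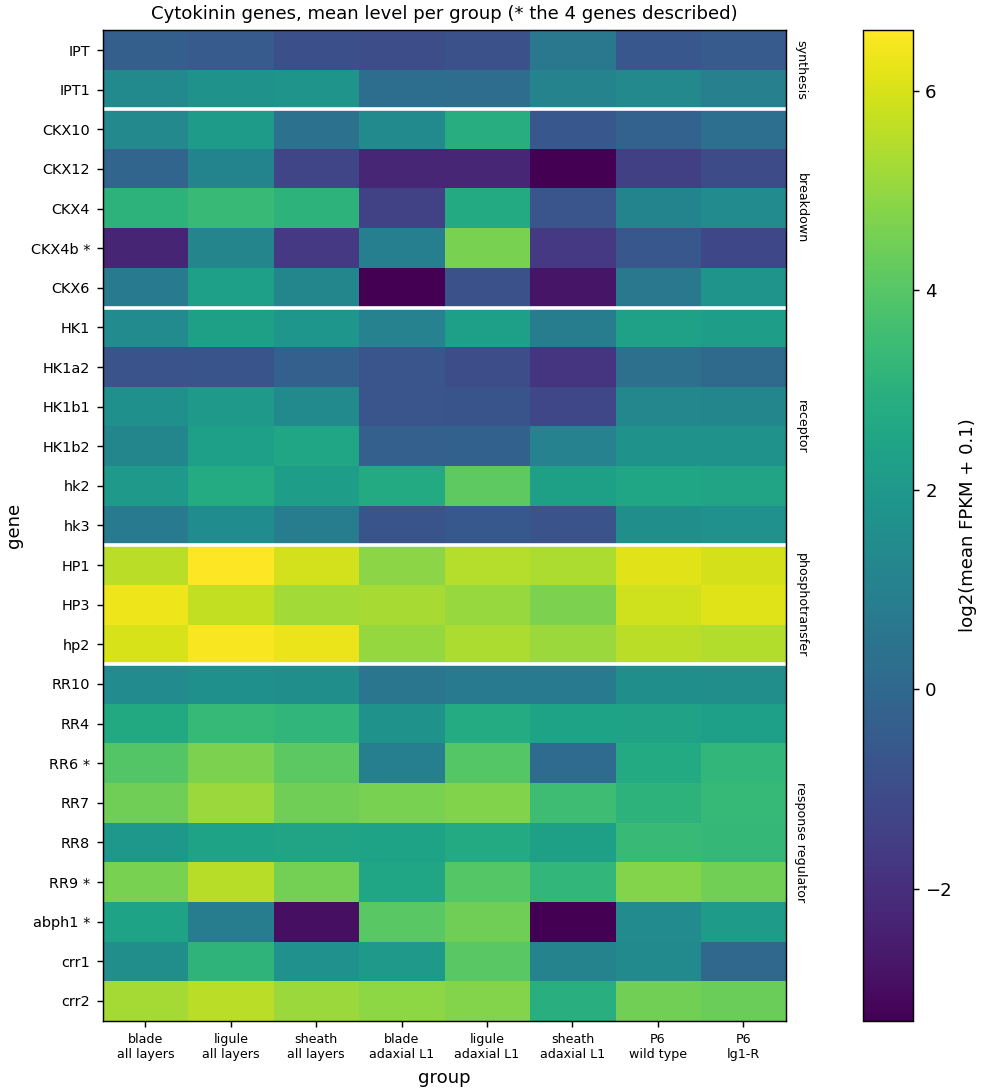
Log2(mean FPKM + 0.1) of the 25 cytokinin genes with a mean of at least 1 CPM in some group, by role and group (n = 3 libraries per cell). The phosphotransfer genes are bright in all groups, whereas abph1, CKX4b and RR6 change from group to group.

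Of the 30 other cytokinin genes, few were called. In all layers, 22 were tested for ligule against the mean of blade and sheath. Of these 3 were higher and none lower by edgeR, where 4.57% of all tested genes were called. The median log2 difference was 0.28 against 0.03 over all genes. The phosphotransfer gene HP1 was higher by 0.75 ± 0.18 (adjusted p = 0.029; 76.4 ± 2.92 CPM in ligule, 40.99 ± 7.25 in blade, 49.8 ± 8.55 in sheath). The response regulator crr1 was higher by 1.41 ± 0.33 (adjusted p = 0.028). The other was the oxidase CKX12, at low counts. Against blade alone 1 of 22 was higher (HP1, 0.90 ± 0.21, adjusted p = 0.027), where 4.75% of all genes were called. The median was 0.41 against 0.04, and 0 of 22 were called with the replicate block. Against sheath 1 of 22 was higher (CKX12), where 2.79% of all genes were called, with a median of 0.42 against 0.00300. For blade against sheath, HP3 was higher (1.16 ± 0.25, adjusted p = 0.037) and the receptor HK1b2 was lower (-1.28 ± 0.27, 0.030). The median was -0.10 against -0.01, and 1.58% of all genes were called.

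In the L1, 19 of the 30 were tested, and 7.73% of all genes were called for ligule against the mean of blade and sheath. Of these 19, 2 were higher in ligule (median 0.30 against -0.00131 over all genes). They were the histidine-kinase receptor hk2 (1.54 ± 0.28, adjusted p = 0.0037) and the oxidase CKX4 (3.98 ± 1.03, 0.030). The receptor measured 77.8 ± 9.91 CPM in ligule, 33.8 ± 12.0 in blade and 22.7 ± 7.26 in sheath. Against blade hk2 alone was called (1.27 ± 0.34, adjusted p = 0.040), where 6.48% of all genes were called. The median was 0.13 against -0.00410. Against sheath hk2 (1.81 ± 0.35, adjusted p = 0.0067) and the response regulator crr2 (1.83 ± 0.39, 0.014) were called. The median was 0.44 against -0.03, and 6.17% of all genes were called. For blade against sheath crr2 alone was called (2.12 ± 0.40, adjusted p = 0.015), where 1.96% of all genes were called. The median was 0.22 against -0.02. Whether the counts of called pathway genes stand above the shares over all genes was not tested. With the tests as above, none of the 30 was lower in ligule, and the fit of all 24 libraries called 1 lower against sheath in the L1. None of 20 tested was called in the P6 comparison by edgeR (median 0.03 against -0.01), while DESeq2 called 1 and edgeR without a filter 1. Over all alternatives, leaving 1 library out included, the number higher in ligule ran from 1 to 4 (mean), 0 to 4 (blade) and 0 to 3 (sheath) in all layers, and from 1 to 6, 0 to 3 and 1 to 7 in the L1.

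Between the captures, more of the pathway genes were called lower than higher in the L1, as were more of all genes (898 higher and 1196 lower in blade, 1083 and 2592 in ligule, 1017 and 1930 in sheath). Called in either direction were 9.38%, 16.5% and 13.2% of all 22334 tested genes in blade, ligule and sheath. Of the pathway genes, in blade 1 was higher and 3 lower of 22 (median -0.66 against -0.08 over all genes), in ligule 1 higher and 7 lower (-0.51 against -0.15), and in sheath none higher and 5 lower (-0.92 against -0.09). The number lower ran from 3 to 7, 1 to 8 and 2 to 7 over alternatives. The receptor hk2 was the one that was higher, in ligule by 1.62 ± 0.30 (adjusted p = 0.00083) and in blade by 0.98 ± 0.30 (0.042). In ligule the receptor HK1b2 (-2.54 ± 0.58, adjusted p = 0.0044) and the phosphotransfer genes HP1 (-0.88 ± 0.25, 0.021) and hp2 (-0.91 ± 0.27, 0.024) were lower. In blade CKX4 was lower (-4.45 ± 1.02, adjusted p = 0.0079), and CKX6 was at 0 in the L1 against 2.94 CPM in all layers (0.0047). In sheath crr2 (-2.01 ± 0.39, adjusted p = 0.0017), hp2 (-0.997 ± 0.27, 0.017) and CKX6 (-5.22 ± 1.35, 0.014) were lower. By edgeR as above, no gene of the 30 passed the test of a different ligule contrast between captures (median 0.19 against -0.07). DESeq2, edgeR without a filter, the fit of all 24 libraries and edgeR without the libraries standing apart each called 1 higher, and limma without a filter called 1 lower.

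For each of the 4 genes, the named genes most like it were sought by Pearson correlation of log2(CPM + 1) over the 24 libraries among 19270 genes. The libraries share region, capture and depth, so r describes a common pattern over groups. CKX4b was most like hk2 (r = 0.919), sbp3 (0.915) and MADS36 (0.909), with 5, 7 and 8 unnamed genes above them. RR6 was most like the oxidase CKX4 (r = 0.845), EREB161 (0.834) and fad7 (0.825), below 12, 15 and 20 unnamed genes. RR9 was most like EREB161 (r = 0.837), SDG123 (0.831) and ARF9 (0.822), below 15, 20 and 22. abph1 was most like OFP16 (r = 0.821), sbp29 (0.799) and MYB1_2 (0.749), below 5, 11 and 36. Over the 8 group means or by Spearman's rank, most of these names changed, and of the 3 named for CKX4b 1 and 2 were kept.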

How the data were processed

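The authors deposited expected counts (estimated counts per gene) and FPKM, 1 column per library. The submitters' processing notes name TopHat2 2.0.10 and Cuffdiff 2.1.1; their roles, the build, the annotation and the strandedness are not given in these sources. Between 0.274% and 0.601% of values were not whole, and counts were rounded. Reads shared by near-identical paralogs make their counts uncertain. Names came from a table of Zm-B73-REFERENCE-NAM-5.0, which matched 18259 identifiers to 1 locus. Of 35 cytokinin loci, 2 had no identifier of their own.

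The 4 genes, the lists and the tests were chosen with earlier results of these data known. Named are the 4 genes, up to 3 called list genes per direction with the smallest p and an average log2 CPM of at least 1, the 3 named genes most like each, and markers. A few others (CKX12, and CKX10 and CKX6 in the FPKM ranks) were named after their values were seen.

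Tests used edgeR 4.0.16 in R 4.3.3 (quasi-likelihood, robust, TMM, filterByExpr with a minimum count of 10 and total of 15), fitted on the 9 P7 libraries of a capture, the 6 of P6, or the 18 P7 libraries for captures. P-values were Benjamini-Hochberg adjusted over all tested genes, with a threshold of 0.05. Standard errors (SE) were taken as the size of the log2 difference over the square root of F. By the correlation of deviations from group means, same-numbered all-layer blade and ligule libraries deviated together (0.490, 0.453 and 0.215). The other sets of groups did not do so in every pair. Whether equal numbers share plants is not in the labels, so the main tests used no replicate block. A block is among the alternatives. The code was tested on simulated counts with a fixed dispersion and with changes only in well-counted genes. That test does not cover genes near 0 counts. Replicate pairs differed by 12.0 to 152 times the counting variance, so none agreed within counting error. Alternatives were DESeq2 1.42.0, RLE factors, no filter, limma 3.58.1 on log2(FPKM + 1) or log2(FPKM + 0.1), a fit of all 24 libraries, a replicate block, and libraries left out. Figures used matplotlib 3.10.9.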

Additional observations from a re-analysis of the deposited data

Results flagged for a closer look

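The difference between the ligule contrasts of the 2 captures passed its test for RR6, at 2.84 on the log2 scale (SE 0.48, adjusted p = 0.0015 in edgeR, 18 libraries). RR6 in ligule exceeded the mean of blade and sheath by 3.40 in the adaxial L1 and by 0.51 in all layers. The smallest L1 ligule value was in replicate 1, with 10.2 CPM against 27.2 and 27.6 CPM. The captures also differ in replicate numbers, so collection and capture cannot be told apart.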

How the results depend on the processing

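Over 52 pairs of gene and comparison, 1050 values under alternatives gave 962 with the same direction and side of the threshold, 51 that lost a call, 26 that gained one and 11 that changed sign. Unless a value shows it, the cause was not tested. The number of called genes among the 4 changed by over 1.5 times as follows. In all layers, the fit of all 24 libraries called 1 for ligule against the mean (RR9 at 0.83, adjusted p = 0.39), 1 against blade and 1 against sheath. RLE factors called 1 against blade, and limma without a filter called 1 against sheath. In the L1, ligule against blade gave 3 without a filter, and 2 with limma in its 3 forms, the fit of all 24 libraries or without the libraries standing apart; blade against sheath gave 2 without a filter. For captures, blade gave 1 without the libraries standing apart, sheath gave 2 without a filter and 2 with limma on either pseudocount, and the test between contrasts gave 3 and 2 with limma on pseudocounts of 1 and 0.1, and 2 without its filter. Smaller changes included abph1 gained against all-layer blade with DESeq2, limma on log2(FPKM + 1), no filter or without the libraries standing apart (adjusted p = 0.025 to 0.046), CKX4b lost against all-layer sheath with limma on a pseudocount of 0.1 (0.066) and between captures in blade in all limma forms (0.12 to 0.30), and RR9 gained between captures in ligule without a filter (0.0023) and with limma (0.049). With 1 library left out, the counts ranged from 1 to 2 (ligule against the mean) and 1 to 3 (blade, sheath) in all layers, from 0 to 2 for L1 ligule against blade, and from 1 to 4, 1 to 3 and 1 to 2 between captures in blade, ligule and sheath; RR9 against the mean ranged from 0.72 to 0.92. Signs changed for CKX4b between captures in sheath (-0.0294 and -0.54 with limma, -0.0294 without its filter, -5.76 to 1.15 leaving 1 out) and for the RR9 contrast term (-0.0486 without the libraries standing apart, -0.0774 to 0.67 leaving 1 out). Leaving 1 out also spanned 0 for RR6 in all-layer blade against sheath (-0.27 to 0.0720), abph1 in L1 ligule against blade (-0.0186 to 0.61), RR9 in L1 blade against sheath (-1.36 to 0.34), RR6 in P6 (-0.0386 to 0.84) and abph1 between captures in sheath (-2.84 to 0). Over all genes and all alternatives, leaving 1 out included, calls ranged from 639 to 1890 (ligule against the mean, all layers), 598 to 1984 (blade), 352 to 1214 (sheath) and 113 to 827 (blade against sheath), in the L1 from 826 to 3858, 706 to 3495, 640 to 3558 and 201 to 1786, in P6 from 0 to 482, between captures from 1113 to 3032 in blade, 2629 to 4751 in ligule and 1968 to 4043 in sheath, and from 338 to 1029 between contrasts. Apart from all-layer blade and ligule, same-numbered libraries did not pair in every case: correlations of deviations were -0.56 to 0.29 for sheath with the others in all layers, -0.07 to 0.05 in the L1 and -0.19 to 0.05 in P6, and 4 of 9, 5 of 9 and 1 of 6 libraries were closest to their own number. Sheath replicate 4 deviated with blade replicate 3 (0.514) and ligule replicate 3 (0.544). Sheath replicate 3 did so with blade replicate 4 (0.435) and ligule replicate 4 (0.596). Only sheath replicate 5 went with its own number (0.288 and 0.232). Whether sheath numbers 3 and 4 were exchanged was not tested. A replicate block on the numbers as labelled called 1 of the 4 for all-layer ligule against blade (RR9 adjusted p = 0.11), and RR9 against sheath missed (0.079). No paired analysis was possible between captures because they share 1 replicate number. Depth limits abph1 and CKX4b in sheath, where 3 counts are the floor. Limma used no precision weights for depth, and FPKM was not renormalised.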
